A study of Brassica napus with 12 samples.

Results

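The apical meristems of rapeseed (Brassica napus) compared here came from plants that carry the same mutant label in different genetic backgrounds. Slike is a class of plants from a second backcross (BC2) between the natural mutant SX3 and the line ZS11 and is labelled mutant. SX3 is the natural mutant itself. The members are the 3 Slike and 3 SX3 libraries out of 12 in the series, taken by their column titles in the table of raw counts. The other libraries are 3 of Zlike, the wild-type class of the same backcross, and 3 of ZS11, labelled wild type, and they enter as levels set beside the pair and in the shared estimate of the spread. All plants grew untreated at an experimental station, and whole apical meristems were taken at the passage from inflorescence primordia to the first floral primordia. The labels do not name the recurrent parent, the BC2 family or the number of plants in a library, so each p-value rests on differences among libraries that may be technical repeats. The mutant label and the backcross background belong to whole lines here, so the contribution of any single locus cannot be told apart from that of the rest of the genome.

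Rapeseed is an allotetraploid: most genes exist as closely similar copies on the A and the C chromosomes, called homoeologs, and reads of such copies can be hard to assign. A shoot apex turns to flowering when mobile and internal signals lift the MADS-box genes of floral meristem identity, which in turn switch on the organ identity genes of sepals, petals, stamens and carpels. FLC and SVP hold that switch back, FT and SOC1 push it forward, and the circadian clock sets when in the day many of these genes are active. Backcrossing replaces parts of one parent's genome by the other's, so neighbouring genes often differ together in such plants.

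Total counts were 13445924 to 14596920 in Slike and 13645330 to 17033511 in SX3. Across genes, log2 CPM (CPM, counts scaled to library size with TMM factors) correlated at 0.987 between Slike libraries and at 0.990 to 0.991 between SX3 libraries, but only at 0.878 to 0.879 between Slike and SX3; genes are not independent replicates. Slike correlated with ZS11 at 0.908 to 0.910. The meristem genes KNAT1 and STM, which keep apex cells undifferentiated, were read in every library, at 36.4 ± 1.34 CPM in Slike and 76.8 ± 3.6 CPM in SX3 for KNAT1 on C03 and at 63.5 ± 4.04 CPM in Slike and 91.2 ± 3.71 CPM in SX3 for STM on C09 (SD, n = 3). The tissue is bulk, so fewer cells of a type and less RNA per cell cannot be told apart in any result below.

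More genes stood far higher in Slike than far lower. Of 51650 genes tested, 27714 (53.7%) were called at an adjusted p under 0.05 in edgeR's quasi-likelihood test with Benjamini-Hochberg adjustment, 15369 higher in Slike (29.8%) and 12345 lower (23.9%). At 2-fold or more, 8930 genes were called (17.3%), of which 6451 were higher in Slike (12.5%) and 2479 lower (4.80%). The median log2 fold change of Slike over SX3 was 0.03 over all genes tested. At 30093 genes tested (58.3%) the Slike and SX3 libraries did not overlap, so such separation was common. Small differences leaned down: among called genes with an absolute log2 fold change under 0.5, 4707 were higher and 6430 lower. From log2 4 upwards, 1988 genes were higher in Slike and 51 lower by fitted value. With genes at 0 in all libraries of a group set to their lower bound against 3 counts per library, these numbers were 1120 and 45, and those at 2-fold or more 6376 and 2478. For scale, Slike against ZS11 gave 28330 calls (54.8%) and 7096 at 2-fold or more (13.7%) in the same fit; both comparisons share the Slike libraries.

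**Figure D1:**
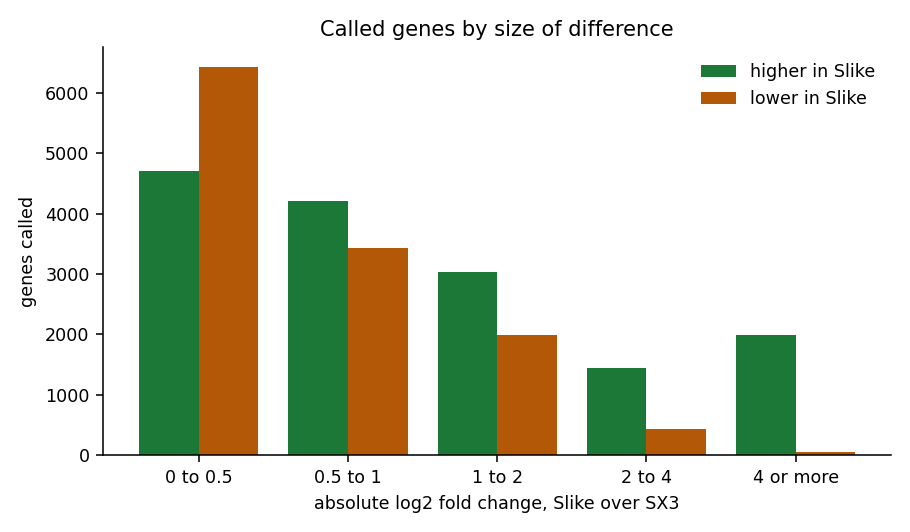
Number of genes called in Slike against SX3 (vertical axis) by absolute log2 fold change (horizontal axis), with genes higher in Slike in green and genes lower in Slike in brown. Of the genes at a fitted log2 of 4 or more, 1988 were higher in Slike and 51 lower (1120 and 45 with genes at 0 set to their bound).

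The asymmetry was sharpest among genes with no reads in a group. In all 3 SX3 libraries 916 genes had 0 counts while Slike averaged 1 CPM or more, which is 1.95% of the 46984 genes at that level in Slike. The reverse held for 2 genes. A count of 0 allows up to 3 counts per library, a floor of 0.206 CPM in SX3 and 0.211 CPM in Slike that covers counting error only. Of the 916 genes, 839 had 1 CPM or more in ZS11 and 50 had 0 counts there; their median was 2.93 CPM in Slike, 4.16 CPM in Zlike and 4.61 CPM in ZS11. How well SX3 reads map to these genes was not tested.

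The 5 of these genes with the highest Slike level, 1 per protein name, all lie on C02 or C01. KIN2 on C02 (BnaC02G0071800ZS, C02:4412097-4412551 in the deposited coordinates), a stress-induced protein, had 103, 110.1 and 109.7 CPM in Slike, against 0, 0 and 0 CPM in SX3, at least 523-fold higher in Slike. An elongation factor 1-beta gene (BnaC02G0094900ZS), part of the translation machinery, had 103, 97.2 and 104.7 CPM in Slike, against 0, 0 and 0 CPM in SX3, at least 495-fold higher. MPT3 (BnaC02G0059500ZS), a mitochondrial phosphate carrier, was at least 394-fold higher, CESA3 (BnaC02G0019500ZS), a cellulose synthase of the primary wall, at least 321-fold and the aspartic protease gene ASPG1 on C01 (BnaC01G0404300ZS) at least 329-fold. The separation of Slike from SX3 in these 5 follows from the rule that picked them. The only annotated gene of the reverse kind was PER22 on A03 (BnaA03G0184500ZS), a peroxidase, with 0, 0 and 0 CPM in Slike, against 3.04, 1.66 and 3.08 CPM in SX3, at least 12.3-fold lower in Slike.

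Along the chromosomes a few stretches differed almost gene for gene. Among 818 windows of 1 Mb with 10 or more tested genes, a median of 13.8% of genes were called at 2-fold or more. High windows, at 50% or more, numbered 19, and 64 windows had under 5%. Runs of at least 2 neighbouring high windows formed 4 stretches, on C02, C01, A01 and A03. The largest, from 0 to 9 Mb of C02, held 655 tested genes, of which 595 (90.8%) were at least 2-fold higher in Slike and 3 at least 2-fold lower, with a median log2 fold change of 6.53 as fitted and 3.96 with the 298 tested genes at 0 in SX3 set to their bound. The end was abrupt: between 8 and 9 Mb 96.1% of the tested genes were called at 2-fold or more, and between 9 and 10 Mb 20.8%. Of its genes, 250 were at 0 in SX3 and at 1 CPM or more in Slike; 632 such genes lay outside the 4 stretches, 629 of them spread over all 19 chromosomes and 3 on unplaced scaffolds.

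**Figure D2:**
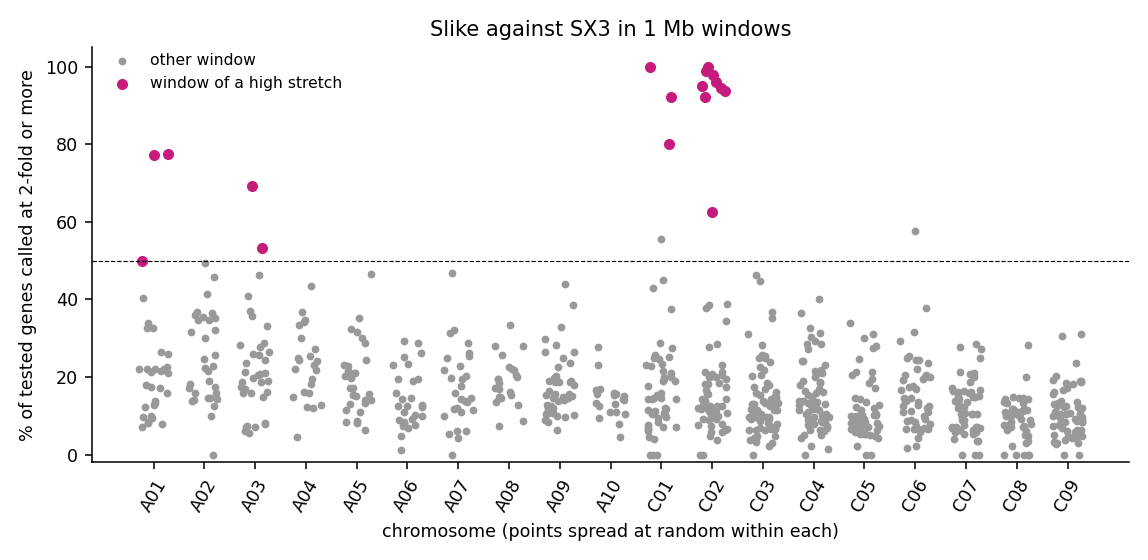
Percentage of tested genes called at 2-fold or more in each 1 Mb window (vertical axis) for the 19 chromosomes (horizontal axis), with windows of the 4 high stretches in magenta and the limit of 50% dashed. C02 and C01 hold the windows nearest 100%.

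In the C02 stretch Slike stood below ZS11, and SX3 had few reads. Summed over all its genes, the 3 Slike libraries had 9432, 9469.6 and 9497 CPM, against 1606, 1574 and 1577 CPM in SX3; Zlike averaged 12272 CPM and ZS11 14525 CPM. For the 466 genes with 5 CPM or more in ZS11, the median level was 61.7% of ZS11 in Slike (quartiles 53.7% to 72.7%) and 1.62% in SX3 (quartiles 0.752% to 7.38%), with 0.1 CPM added to each level before division. Over the rest of the chromosomes the same medians were 98.3% in Slike and 96.7% in SX3. Zlike stood at 83.0% of ZS11 in the stretch. Known regulators sit inside it. FLC on C02 (BnaC02G0039100ZS), a repressor of flowering, had 7.98, 9.1 and 9.45 CPM in Slike, against 0, 0 and 0 CPM in SX3, at least 43-fold higher. The clock gene APRR7 on C02 (BnaC02G0007000ZS) had 20.1, 18.1 and 16.3 CPM in Slike, against 0, 0 and 0 CPM in SX3, at least 88.5-fold higher. The mitotic cyclin gene CYCB1-2 (BnaC02G0023000ZS) had 36.4, 34.9 and 33.1 CPM in Slike, against 0, 0 and 0 CPM in SX3, at least 169.5-fold higher. None of these 3 genes had a read in any SX3 library. ARF4 (BnaC02G0118700ZS), an auxin response factor of organ polarity, was at least 38.7-fold higher, and KAN1 (BnaC02G0074800ZS), a factor of the organ's lower side, at least 19.3-fold. CKX7 (BnaC02G0107100ZS), which degrades cytokinin, averaged 7.76 CPM in Slike and 0.0247 CPM in SX3, and LOG8 (BnaC02G0049300ZS), which activates it, 21.2 CPM in Slike and 0.51 CPM in SX3.

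Some genes inside the C02 stretch did have reads in SX3. The most abundant gene of the stretch with a protein match, ACT7 (BnaC02G0037200ZS), an actin, had 299, 293 and 306 CPM in Slike, against 176, 178 and 169 CPM in SX3. It was higher in every Slike library (log2 0.78 ± 0.03 (SE), edgeR adjusted p = 4.92e-55). BLH9 (BnaC02G0004200ZS), the homeodomain partner of KNAT1 in inflorescence architecture, had 16.8, 18.5 and 18.1 CPM in Slike, against 4.67, 3.25 and 3.79 CPM in SX3 (log2 2.19 ± 0.12 (SE), edgeR adjusted p = 1.20e-36). Counts of such genes are uncertain where a near-identical copy elsewhere takes or gives reads.

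The other stretches were smaller and 1 of them ran the other way. From 45 to 48 Mb of C01, 116 of 128 tested genes (90.6%) were at least 2-fold higher in Slike and 1 was lower, with a median log2 of 5.08 (3.75 with genes at 0 set to their bound). Its 83 genes with 5 CPM or more in ZS11 stood at a median 58.3% of ZS11 in Slike and 2.62% in SX3. VRN1 (BnaC01G0399600ZS), a B3 factor of the vernalization response, had 16.1, 14 and 14.6 CPM in Slike, against 0.889, 1.81 and 1.01 CPM in SX3 (log2 3.6 ± 0.16 (SE), edgeR adjusted p = 1.45e-44). UBP13 (BnaC01G0388800ZS), a ubiquitin protease, went the opposite way inside the same stretch, with 154, 150.0 and 148 CPM in Slike, against 342, 353 and 350.4 CPM in SX3 (log2 -1.21 ± 0.03 (SE), edgeR adjusted p = 4.76e-75). From 35 to 38 Mb of A01, 126 of 203 tested genes (62.1%) were at least 2-fold lower in Slike and 13 higher, with a median log2 of -1.17. Its summed level was 2734, 2745 and 2741 CPM in Slike, against 5037, 5003 and 5013 CPM in SX3; Zlike averaged 1823 CPM and ZS11 1452 CPM. The 154 genes with 5 CPM or more in SX3 stood at a median 42.6% of SX3 in Slike (quartiles 35.2% to 53.8%), at 13.9% in Zlike and at 1.96% in ZS11. Genes abundant in SX3 there were thus scarce in ZS11, the reverse of C02 and C01. The fourth stretch, 42 to 44 Mb of A03, had only 28 tested genes, 11 at least 2-fold higher and 6 lower.

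The A01 genes included parts of the translation machinery, metabolism and flower development. RPS3A (BnaA01G0401000ZS, A01:35744630-35747314), a ribosomal protein, had 90.3, 88.1 and 88.5 CPM in Slike, against 304, 308 and 303 CPM in SX3 (log2 -1.78 ± 0.03 (SE), edgeR adjusted p = 5.25e-85), with 30.5 CPM in Zlike and 4.53 CPM in ZS11. GAPC (BnaA01G0404200ZS), the cytosolic glycolytic dehydrogenase, had 132, 129.7 and 129.7 CPM in Slike, against 301, 298 and 288 CPM in SX3 (log2 -1.18 ± 0.03 (SE), edgeR adjusted p = 1.56e-67). In both genes all Slike libraries lay below all SX3 libraries and above the Zlike and ZS11 means. RPK2 (BnaA01G0417100ZS), a receptor kinase of meristem size control, averaged 9.51 ± 0.705 CPM in Slike and 22.8 ± 1.16 CPM in SX3 (log2 -1.26 ± 0.10 (SE), edgeR adjusted p = 6.14e-22). SEP2 on A01 (BnaA01G0416700ZS), a partner of the floral organ factors, was an exception, at 23.6 ± 1.53 CPM in Slike and 20.2 ± 2.12 CPM in SX3, with 0.841 CPM in Zlike and 0 in ZS11. Its small difference (log2 0.23 ± 0.09 (SE), edgeR adjusted p = 0.0187) was lost in the DESeq2 test and without 1 of 2 libraries, Slike replicate 3 or SX3 replicate 3 (adjusted p = 0.142 and 0.220).

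**Figure D3:**
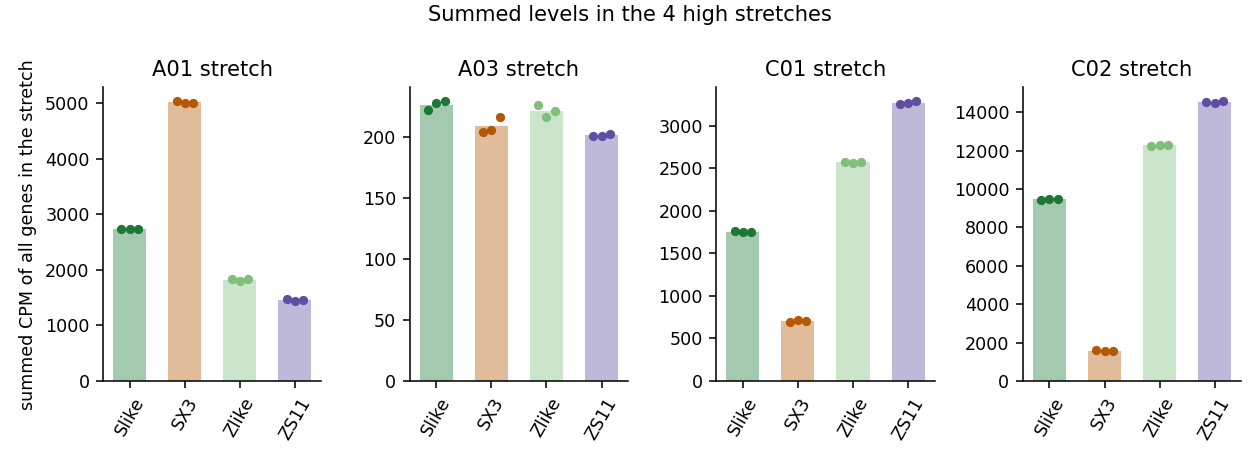
Summed CPM of all genes in each of the 4 high stretches (vertical axes, each from 0) by group, with points for libraries and bars for means of 3. Slike lies between SX3 and ZS11 in the A01, C01 and C02 stretches.

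Partner copies on the other subgenome were compared for 1780 homoeolog pairs. A pair is a protein match (name and species) with exactly 1 copy on an A chromosome and 1 on the matching C chromosome, both tested. In 65 pairs the C copy lay in the C02 stretch: the median log2 fold change was 6.02 for the C copies (4.09 with genes at 0 set to their bound), -0.11 for the A copies and 0.50 for the summed levels of a pair. In 19 pairs with the A copy in the A01 stretch it was -1.32 for the A copies, 0.69 for the C copies and -0.17 for the sum. Over the 1691 pairs with neither copy in a stretch the medians were 0.09, -0.03 and 0.04. GASA4, a small gibberellin-regulated protein, has further tested copies on A03 and C03 and so is not among these pairs: its C02 copy (BnaC02G0067600ZS) had 78.1, 80.7 and 77.3 CPM in Slike, against 0.37, 0.361 and 0.652 CPM in SX3, and the A02 copy (BnaA02G0058500ZS) had 268, 263 and 274 CPM in Slike, against 529, 524 and 528 CPM in SX3. The C02 copy was higher in Slike (log2 7.35 ± 0.11 (SE), edgeR adjusted p = 8.84e-94) and the A02 copy lower (log2 -0.97 ± 0.03 (SE), edgeR adjusted p = 6.95e-69), further below SX3 than the median of the 65 A copies. The A03 and C03 copies differed by log2 -1.11 and -0.95 and were called lower too. Where reads fit both copies, a shift between them cannot be told apart from a shift in assignment.

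Large differences also occurred outside the stretches, which hold 1014 of the 51650 tested genes: 5716 genes were at least 2-fold higher and 2343 lower elsewhere. Among genes with at least 5 CPM in both groups, the highest fold changes belonged to a histone H1.2 gene on A04 (BnaA04G0197900ZS, log2 4.79), the methyl donor enzyme gene SAMS on C09 (BnaC09G0005000ZS, 4.34) and the vacuolar aquaporin gene TIP1-1 on A04 (BnaA04G0236300ZS, 4.05). TIP1-1 had 348, 352 and 348 CPM in Slike, against 23.2, 21.2 and 19.3 CPM in SX3 (log2 4.05 ± 0.04 (SE), edgeR adjusted p = 5.71e-121). ACT2 (BnaC01G0401600ZS, 3.74) lies in the C01 stretch, an oxygenase gene on A01 (BnaA01G0217200ZS, 3.65) and the ribosomal gene RPS7 on C01 (BnaC01G0500600ZS, 3.63) outside it. At the other end stood FSD1 on A01 (BnaA01G0146300ZS), the iron superoxide dismutase of the chloroplast, with 9.59, 8.26 and 8.23 CPM in Slike, against 133, 129 and 123 CPM in SX3 (log2 -3.88 ± 0.07 (SE), edgeR adjusted p = 2.62e-88). BGLU18 on C06 (BnaC06G0067000ZS), a glucosidase that releases abscisic acid from its stored form, had 185, 188 and 189 CPM in Slike, against 1248, 1264 and 1289 CPM in SX3 (log2 -2.76 ± 0.02 (SE), edgeR adjusted p = 1.13e-128), with 253 CPM in Zlike and 3759.8 CPM in ZS11. Both genes were lower in Slike in every library. A phosphodiesterase gene on C03 (BnaC03G0778100ZS, -3.72), trpB2 on C04 (BnaC04G0420900ZS, -2.73), which makes tryptophan, the amino acid permease gene AAP3 on C06 (BnaC06G0432800ZS, -2.65) and the lectin gene JAL22 on A04 (BnaA04G0256400ZS, -2.54) completed the lowest 6.

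Genes that specify the floral organs were mostly higher in Slike than in SX3. In the floral organ identity list 23 of 37 tested genes were called higher and 10 lower (62.2% and 27%), with a median log2 of 0.54. Over all tested genes these shares were 29.8% and 23.9%. At 2-fold or more the list had 16 and 3, beside 12.5% and 4.80% of all tested genes. SEP3 (listed as AGL9), the shared partner of the organ factors, had 13.8, 15.8 and 15.2 CPM in Slike, against 2.96, 3.11 and 3.44 CPM in SX3 at its most changed copy, on C05 (BnaC05G0234000ZS; log2 2.23 ± 0.14 (SE), edgeR adjusted p = 8.10e-30), and all 6 tested copies were called higher, by log2 1.04 to 2.23. AP3 on A09 (BnaA09G0503200ZS), which specifies petals and stamens, had 42, 43.3 and 43.5 CPM in Slike, against 15.9, 12.7 and 13.9 CPM in SX3 (log2 1.60 ± 0.08 (SE), edgeR adjusted p = 3.38e-40). PI on C03 (BnaC03G0100100ZS), the partner of AP3, had 34.4, 34.7 and 33.9 CPM in Slike, against 14.7, 15.5 and 14.8 CPM in SX3 (log2 1.2 ± 0.08 (SE), edgeR adjusted p = 2.01e-27). In these 3 genes no Slike library overlapped an SX3 library, which held for 58.3% of all genes tested. The 4 AP3 copies ranged from log2 1.42 to 1.62. A PI copy on C09 (BnaC09G0462700ZS) was called only narrowly (log2 0.54 ± 0.23 (SE), edgeR adjusted p = 0.0424), and the call was lost under both other scalings, in the DESeq2 test and without any 1 library other than SX3 replicate 1 (adjusted p = 0.0503 to 0.149). AGAMOUS on A01 (listed as AG1, BnaA01G0099500ZS), which specifies stamens and carpels, had 9.44, 10 and 8.44 CPM in Slike, against 2.89, 3.25 and 3.2 CPM in SX3 (log2 1.57 ± 0.16 (SE), edgeR adjusted p = 1.61e-15), and all 4 tested copies were called higher. The fruit gene AGL1 on C08 (BnaC08G0385300ZS) was the clearest member on the other side, with 1.83, 1.96 and 1.42 CPM in Slike, against 6.15, 6.07 and 5.92 CPM in SX3 (log2 -1.80 ± 0.19 (SE), edgeR adjusted p = 2.60e-15). Zlike and ZS11 lay below both mutant groups at the AP3, PI and SEP3 copies named, for instance at 8.05 CPM in Zlike and 0.705 CPM in ZS11 for AP3.

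Floral meristem identity genes were mostly higher as well. In that list 23 of 39 tested genes were called higher and 5 lower (59.0% and 12.8%), with a median log2 of 0.60. Over all tested genes these shares were 29.8% and 23.9%. At 2-fold or more the list had 13 and none, beside 12.5% and 4.80% of all tested genes. AP1 on A07 (listed as AP1C, BnaA07G0307000ZS), which commits a primordium to being a flower, had 29.6, 30.5 and 29.2 CPM in Slike, against 21.6, 21.3 and 20.9 CPM in SX3 (log2 0.49 ± 0.08 (SE), edgeR adjusted p = 9.80e-09), and its relative CAL on A08 (BnaA08G0229400ZS) had 25.5, 22.8 and 22.9 CPM in Slike, against 10.1, 10.6 and 11.7 CPM in SX3 (log2 1.13 ± 0.09 (SE), edgeR adjusted p = 5.72e-22). Both were above SX3 in every Slike library. FUL on C07 (listed as AGL8, BnaC07G0377400ZS), a promoter of the inflorescence state and fruit, was lower, at 16.1 ± 1.39 CPM in Slike and 21.5 ± 1.16 CPM in SX3 (log2 -0.42 ± 0.09 (SE), edgeR adjusted p = 1.23e-05). UFO on C08 (BnaC08G0124000ZS), a co-factor of LFY in petal and stamen specification, was lower too, at 5.24 ± 0.364 CPM in Slike and 8.95 ± 1.15 CPM in SX3 (log2 -0.78 ± 0.14 (SE), edgeR adjusted p = 3.83e-07). SEP1 on C03 (BnaC03G0075900ZS) had 23.1, 26.4 and 23.3 CPM in Slike, against 19.8, 22.3 and 22.5 CPM in SX3 and did not pass (log2 0.17 ± 0.08 (SE), edgeR adjusted p = 0.074), whereas SEP2 on C01 (BnaC01G0498700ZS), at 29.8 ± 2.47 CPM in Slike and 23 ± 1.61 CPM in SX3, did (log2 0.38 ± 0.08 (SE), edgeR adjusted p = 6.84e-06). SEP4 on C07 (listed as AGL3, BnaC07G0285300ZS) had log2 -0.34 (edgeR adjusted p = 0.0428), a call lost without any 1 of Slike replicates 1 and 3 and SX3 replicates 2 and 3 (adjusted p = 0.0695 to 0.211), with no filter on low counts (adjusted p = 0.0663) and in the DESeq2 test. The most abundant copy matched to LFY averaged 0.255 CPM in Slike and 0.108 CPM in SX3 and was too low to test.

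The flowering promotion list leaned higher in Slike, and the repression list lay near the shares of all tested genes, 29.8% higher and 23.9% lower. Of the promotion list 52 of 104 tested genes were called higher and 16 lower (50% and 15.4%), with 22 and 9 at 2-fold or more. Of the repression list 19 of 63 tested genes were called higher and 17 lower (30.2% and 27%), with 13 and 3 at 2-fold or more. The mobile flowering signal FT, at its C06 copy (BnaC06G0323800ZS), had 2.71, 1.89 and 2.97 CPM in Slike, against 9.4, 9.75 and 8.71 CPM in SX3 (log2 -1.87 ± 0.17 (SE), edgeR adjusted p = 2.11e-18). SOC1 on A03 (BnaA03G0221300ZS), a MADS-box gene that passes such signals on in the apex, had 25.8, 28.1 and 22.8 CPM in Slike, against 85.1, 87.6 and 86.8 CPM in SX3 (log2 -1.76 ± 0.05 (SE), edgeR adjusted p = 3.78e-61). Both were lower in every Slike library. SOC1 on A03 lay at 25 CPM in Zlike and 93.4 CPM in ZS11, so both backcross classes had the lower level and both parent lines the higher. SOC1 copies on C04, A05 and C03 were lower too, at log2 -2.24, -1.12 and -1.35, while 3 copies at 0.658 to 1.17 CPM in Slike, on A03, A06 and A10, were called higher. SPL9, which drives the change to the adult phase, was higher at all 4 copies, by log2 0.27 to 0.47.

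Repressors split by gene. FLC on A02 (BnaA02G0035100ZS, A02:2018429-2021687) had 27.4, 26 and 27.6 CPM in Slike, against 3.85, 3.32 and 2.9 CPM in SX3 (log2 3.02 ± 0.11 (SE), edgeR adjusted p = 3.82e-53), with 31.9 CPM in Zlike and 39.2 CPM in ZS11. FLC copies on A03, C03 and A10 were higher by log2 0.46 to 1.24, the C02 copy was at 0 in SX3, and the C09 copy (BnaC09G0556700ZS) did not pass (log2 -0.24). SVP on A04 (BnaA04G0147200ZS), a partner of FLC, had 18.7, 16.7 and 17.7 CPM in Slike, against 66.5, 72 and 73.3 CPM in SX3 (log2 -2.0 ± 0.06 (SE), edgeR adjusted p = 6.72e-59). FLC on A02 was thus high and SVP on A04 low in every Slike library. All 4 SVP copies were lower, the other 3 at log2 -0.74 to -0.62. TFL1 on C03 (BnaC03G0016500ZS), which keeps the shoot tip from becoming a flower, had 38.9, 37.5 and 38.1 CPM in Slike, against 63.4, 66.3 and 67.8 CPM in SX3 (log2 -0.79 ± 0.05 (SE), edgeR adjusted p = 6.20e-29). Of the other TFL1 copies 3 were lower, A03 did not pass (log2 0.08), and the C02 copy lies in the C02 stretch. AGL24 on A03 (BnaA03G0480400ZS), a promoter related to SVP, was lower (log2 -0.57) while its copy on C01 (BnaC01G0180300ZS) was higher (1.00).

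**Figure D4:**
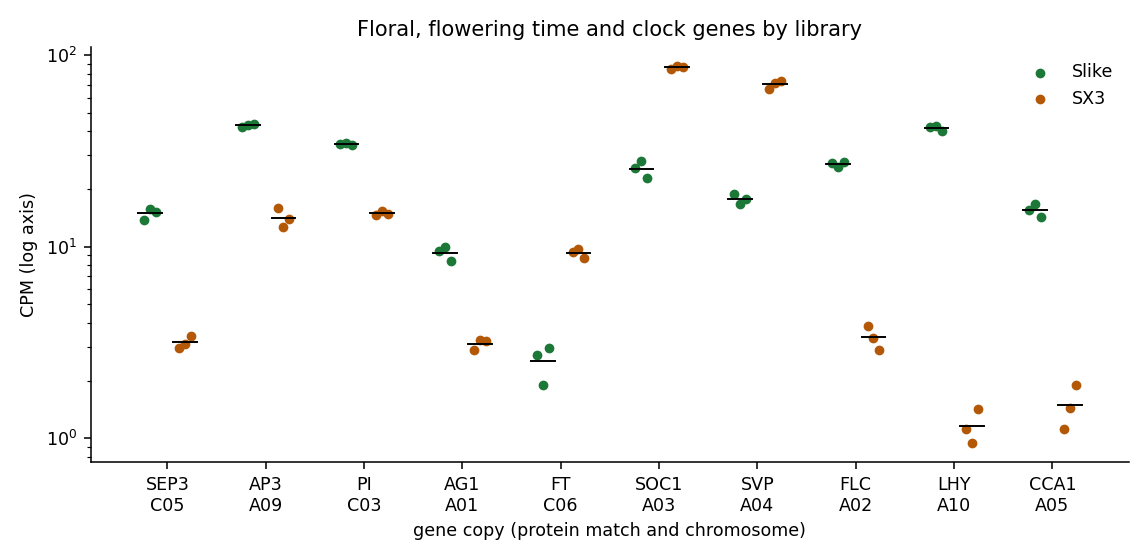
CPM of 10 gene copies (horizontal axis) in each library (points, log axis) with the group mean as a bar, Slike left of SX3 in each pair. The 2 groups do not overlap at any of these copies, as at 58.3% of all genes tested. FT, SOC1 and SVP are lower in Slike and the rest higher.

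Clock genes were mostly higher in Slike. Of the clock list 53 of 95 tested genes were called higher and 10 lower (55.8% and 10.5%), with a median log2 of 0.55. Over all tested genes these shares were 29.8% and 23.9%. At 2-fold or more the clock list had 32 and none, beside 12.5% and 4.80% of all tested genes. LHY on A10 (BnaA10G0008600ZS), a morning repressor of the clock, had 42.1, 42.8 and 40.4 CPM in Slike, against 1.11, 0.939 and 1.42 CPM in SX3 (log2 5.14 ± 0.11 (SE), edgeR adjusted p = 6.01e-78), with 53 CPM in Zlike and 249 CPM in ZS11. CCA1 on A05 (BnaA05G0011000ZS), its close relative, had 15.5, 16.7 and 14.2 CPM in Slike, against 1.11, 1.44 and 1.9 CPM in SX3 (log2 3.34 ± 0.14 (SE), edgeR adjusted p = 3.69e-45). All 5 tested LHY copies, of which 2 were under 1 CPM in Slike, and both CCA1 copies were called higher. Every Slike library lay above all SX3 libraries at the copies named. APRR1 on C07 (BnaC07G0381000ZS), the evening component that opposes them, was lower, at 58.3 ± 2.17 CPM in Slike and 74.9 ± 4.41 CPM in SX3 (log2 -0.36 ± 0.05 (SE), edgeR adjusted p = 2.70e-11). GI on C05 (BnaC05G0198400ZS), an evening gene of the photoperiod pathway, was higher, at 66.7 ± 2.15 CPM in Slike and 46.7 ± 1.37 CPM in SX3 (log2 0.51 ± 0.05 (SE), edgeR adjusted p = 5.77e-18). The labels give no hour of harvest, and a difference in hour between groups was not tested.

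Meristem, boundary and polarity genes were called in both directions. At 2-fold or more the boundary and polarity lists held no lower member, beside 12.5% higher and 4.80% lower over all tested genes. With no fold limit those shares were 29.8% and 23.9%. Of the meristem maintenance list 33 of 81 tested genes were called higher and 20 lower (40.7% and 24.7%), with 5 and 4 at 2-fold or more, and its summed level ran over 2326 to 2377 CPM in Slike and 2329.8 to 2334 CPM in SX3. KNAT1 on C03 (BnaC03G0292200ZS) was the lower member with the smallest p: it had 37.1, 37.2 and 34.8 CPM in Slike, against 77.5, 72.9 and 80 CPM in SX3 (log2 -1.08 ± 0.05 (SE), edgeR adjusted p = 4.35e-42). STM on C09 (BnaC09G0172400ZS) was lower (log2 -0.52 ± 0.04 (SE), edgeR adjusted p = 2.90e-22), while its A09 copy (BnaA09G0156700ZS) averaged 55.5 CPM in Slike and 55.6 CPM in SX3. The stem cell genes WUS on C09 (BnaC09G0117600ZS) and CLV3 on A04 (BnaA04G0177000ZS) averaged 1.56 and 0.753 CPM in Slike, against 1.41 and 0.599 CPM in SX3, and did not pass (edgeR adjusted p = 0.706 and 0.587). In the boundary and branching list 18 of 53 tested genes were called higher and 8 lower (34% and 15.1%). At 2-fold or more this list had 12 and none, or 10 and none of 51 outside the high stretches. CUC2 on C02 (listed as NAC098, BnaC02G0171700ZS), which sets organs apart, averaged 9.28 ± 0.148 CPM in Slike and 5.99 ± 0.781 CPM in SX3 (log2 0.64 ± 0.13 (SE), edgeR adjusted p = 1.25e-05), CUC3 on A02 (NAC031, BnaA02G0221500ZS) was higher, at log2 1.23, and CUC1 on C03 (NAC054, BnaC03G0410600ZS) lower, at log2 -0.68. TCP18 on A01 (BnaA01G0326500ZS), which holds axillary buds back, had log2 -0.67 (edgeR adjusted p = 0.0242), and the call was lost without Slike replicate 2 or SX3 replicate 3 (adjusted p = 0.111 and 0.155) and in the DESeq2 test. RAX3, a MYB factor of axillary meristems, was called higher at 5 of 6 copies, with at most 1.61 CPM in Slike. Its A01, A09, C02 and C09 copies averaged at most 0.099 CPM in SX3, Zlike and ZS11. These copies passed the filter on low counts only through Slike, so they could only be called higher. In the polarity list 24 of 72 tested genes were called higher and 26 lower (33.3% and 36.1%). At 2-fold or more the polarity list had 10 and none, or 6 and none of 68 outside the high stretches. It included ATHB-15 on C03 (BnaC03G0790600ZS), an HD-ZIP factor of vascular and meristem patterning, at 107 ± 2.83 CPM in Slike and 199.8 ± 3.54 CPM in SX3 (log2 -0.90 ± 0.03 (SE), edgeR adjusted p = 1.62e-53).

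Hormone lists leaned lower for auxin and cytokinin. Of the auxin list 30 of 159 tested genes were called higher and 69 lower (18.9% and 43.4%), with a median log2 of -0.14. IAA18 on A06 (BnaA06G0021000ZS), a repressor of auxin response, had 11.6, 11.1 and 11.9 CPM in Slike, against 34.7, 34.4 and 31.8 CPM in SX3 (log2 -1.54 ± 0.09 (SE), edgeR adjusted p = 3.96e-34), and IAA8 on C04 (BnaC04G0440300ZS), of the same family, was higher (log2 0.79 ± 0.05 (SE), edgeR adjusted p = 8.76e-33). YUCCA6, an auxin synthesis enzyme, was called lower at 5 of 6 copies, and YUCCA4 higher at 3 of 4. Of the cytokinin list 22 of 134 tested genes were called higher and 44 lower, including ARR4 on C08 (BnaC08G0519400ZS), an early response regulator, at 26.7 ± 1.12 CPM in Slike and 52.2 ± 1.36 CPM in SX3 (log2 -0.97 ± 0.06 (SE), edgeR adjusted p = 2.04e-30). Of the gibberellin list 19 of 57 tested genes were called higher and 15 lower (33.3% and 26.3%). Of the cell division list 35 of 157 tested genes were called higher and 41 lower (22.3% and 26.1%). Both lists lay near the shares of all tested genes, 29.8% and 23.9%. At 2-fold or more the cell division list had 10 and none, beside 12.5% and 4.80% of all tested genes, and 8 and none of 155 outside the high stretches. CYCB2-2 on C07 (BnaC07G0527600ZS), a mitotic cyclin, was lower, at log2 -0.66, whereas CYCB1-2 in the C02 stretch, described above, was higher.

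Cytosolic ribosomal protein genes were lower together. Of this list 103 of 736 tested genes were called higher and 556 lower (14% and 75.5%), mostly by less than 2-fold, with a median log2 of -0.38 and a summed level of 68895 to 69748 CPM in Slike and 87793 to 89002 CPM in SX3. RPS2A on C03 (BnaC03G0241200ZS) was the lower member with the smallest p: 90.1, 91.6 and 94.2 CPM in Slike, against 347, 352 and 344 CPM in SX3 (log2 -1.92 ± 0.03 (SE), edgeR adjusted p = 2.43e-89). RPL8C on C03 (BnaC03G0695600ZS) ran the other way, with 117, 112 and 114 CPM in Slike, against 3.33, 4.19 and 2.37 CPM in SX3 (log2 5.14 ± 0.07 (SE), edgeR adjusted p = 1.67e-97). In Zlike and ZS11 the summed level averaged 68765 and 53480.1 CPM. Without the genes of the high stretches, 96 of 719 were higher and 546 lower. Of the 68 core histone genes tested 22 were higher and 29 lower (32.4% and 42.6%), with a median log2 of -0.06. Over all tested genes 29.8% were higher and 23.9% lower. HIS2B on A10 (BnaA10G0161600ZS), a histone H2B, averaged 197 ± 6.52 CPM in Slike and 320.2 ± 7.57 CPM in SX3, with 5.2 CPM in Zlike and 4.39 CPM in ZS11.

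APK2, SULTR3;4 and CYP79B1 were lower in Slike at every tested copy. Among protein names with 5 or more tested copies, the lowest medians belonged to the adenylyl-sulfate kinase APK2, which makes the sulfate donor of glucosinolates (5 of 5 copies lower, median log2 -3.14), and the sulfate transporter SULTR3;4 (6 of 6, -2.99). CYP79B1, by name an enzyme that starts indole glucosinolate synthesis from tryptophan, was lower at 6 of 6 copies (-1.83). Its C03 copy (BnaC03G0681300ZS) lost the call without Slike replicate 1, SX3 replicate 2 or SX3 replicate 3 (edgeR adjusted p = 0.0771 to 0.208). On A01 it (BnaA01G0008700ZS) had 25, 25.8 and 24.2 CPM in Slike, against 108, 109 and 114 CPM in SX3 (log2 -2.14 ± 0.05 (SE), edgeR adjusted p = 2.26e-73), and APK2 on A03 (BnaA03G0567200ZS) had 4.46, 5.11 and 4.32 CPM in Slike, against 21.8, 26 and 25.6 CPM in SX3 (log2 -2.40 ± 0.11 (SE), edgeR adjusted p = 1.16e-43). The groups did not overlap at either copy, as at 58.3% of all genes tested. APK2 and CYP79B1 copies lie side by side or 1 gene apart by ID on A01, A03, A08, C01 and C07; on A01 they span 578174 to 579730 and 584778 to 586876. The sugar transporter SWEET14 was lower at 4 of 5 copies, a WAT1-related transporter at 5 of 6 and the trehalose-phosphate phosphatase TPPH at 5 of 5. In the whole glucosinolate list 18 of 56 tested genes were called higher and 26 lower (32.1% and 46.4%). Over all tested genes these shares were 29.8% and 23.9%. CYP83B1 on C08 (BnaC08G0083800ZS), the next enzyme of the indole branch, had 212, 212 and 226 CPM in Slike, against 376, 371 and 369 CPM in SX3 (log2 -0.78 ± 0.03 (SE), edgeR adjusted p = 1.10e-56), whereas MYB34 on C07 (BnaC07G0376700ZS), an activator of that branch, was higher, at 60.6 ± 3.79 CPM in Slike and 14.6 ± 1.33 CPM in SX3 (log2 2.06 ± 0.06 (SE), edgeR adjusted p = 3.66e-61).

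Among protein names with 5 or more tested copies, the highest medians, with copies at 0 in SX3 set to their bound, were those of omega-hydroxypalmitate O-feruloyl transferase, an enzyme of suberin synthesis (log2 3.77), HSP14.7, a small heat shock protein (3.23), LHY (2.94), RAX3 (2.68), the translation initiation factor eIF5B (2.56) and argonaute 9, a small RNA binding protein (2.39). The feruloyl transferase, HSP14.7 and RAX3 medians rest in part on copies that passed the filter on low counts only through Slike. Such copies could only be called higher. They include the feruloyl transferase copies on A04, A07, C04 and C06. Among HSP14.7 copies they include BnaA06G0415300ZS, BnaC07G0254900ZS and BnaC07G0260900ZS. Argonaute 9 was called higher at 6 of 6 copies, and the feruloyl transferase higher at 5 of 7 and lower at the rest. TEBICHI, a DNA repair polymerase, had the highest median as fitted, 6.19, but 1.58 with bounds, the 23rd of 2502 names. For TEBICHI, 5 short C01 copies close together were at 0 in SX3 and averaged 0.613 to 1.83 CPM in Slike, and the 3 copies over 7 CPM in Slike differed by log2 -0.29 to 0.25. HSP14.7 on A06 (BnaA06G0415300ZS) had 17.1, 15.8 and 17.5 CPM in Slike, against 0.666, 0.578 and 0.592 CPM in SX3 (log2 4.76 ± 0.20 (SE), edgeR adjusted p = 7.77e-46), with 0.0425 CPM in Zlike and 0 in ZS11. Slike was the group with the most HSP14.7 at all 6 copies by mean level.

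By protein domain, the lytic transglycolase domain, carried mostly by expansins, and TIFY proteins stood lowest. Wound-induced proteins, 1 MADS-box entry and ALOG proteins stood highest. Among 471 Pfam domains with 20 or more tested genes, the lytic transglycolase domain had the lowest median log2, -0.60, with 29 of 44 lower and 10 higher. Of these genes 42 are expansins, which loosen cell walls, with 29 lower, 8 higher and a median of -0.63, and the other two, both higher, are named EG45-like domain containing protein 2. Expansin-B3 was lower at 4 of 4 copies (summed mean 72.9 CPM in Slike and 194.8 CPM in SX3) and expansin-A1 at 5 of 5 (80.4 CPM in Slike and 158.6 CPM in SX3). The TIFY proteins, most of which repress jasmonate response, followed at -0.59, with 20 of 32 lower and TIFY 7 lower at 6 of 6. Wound-induced proteins had the highest median (0.97, 21 of 25 higher), then the MADS domain entry (0.79, 17 of 30). The ALOG domain (DUF640) followed (0.71, 21 of 35). Genes were grouped by their whole Pfam entry, so this MADS entry covers only part of the family. It holds 1 SOC1 copy and no SVP copy. ALOG proteins act at the boundaries of lateral organs; LSH10 was higher at 6 of 6 copies (summed mean 282.4 CPM in Slike and 85.3 CPM in SX3) and LSH4 at 4 of 4 (109.3 CPM in Slike and 59.0 CPM in SX3). Among 79 GO terms with 50 or more tested genes, light harvesting in photosynthesis stood highest (0.62, 49 of 66 higher) and structural constituents of the ribosome second lowest (-0.32, 595 of 968 lower).

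Markers of neighbouring tissues moved with these groups. Over all tested genes, 29.8% were called higher and 23.9% lower. Of the photosynthesis list, a marker of green tissue, 108 of 155 tested genes were called higher and 11 lower (69.7% and 7.10%), with a summed level of 9677 to 9697 CPM in Slike and 6727 to 6855 CPM in SX3; LHCB1.3 on A04 (BnaA04G0221200ZS), an antenna protein, had 379, 375 and 384 CPM in Slike, against 95.5, 89.8 and 90.2 CPM in SX3 (log2 2.05 ± 0.03 (SE), edgeR adjusted p = 3.99e-98). Of the epidermis list 51 of 75 tested genes were called higher and 4 lower, with a summed level of 2198 to 2224 CPM in Slike and 1617 to 1657 CPM in SX3; CER1 on A09 (BnaA09G0698500ZS), a wax synthesis gene, had 45.5, 50.5 and 43.8 CPM in Slike, against 14, 11.4 and 11 CPM in SX3 (log2 1.95 ± 0.08 (SE), edgeR adjusted p = 4.85e-47). Of the vascular and secondary wall list 11 of 79 tested genes were called higher and 45 lower, with 753 to 767 CPM in Slike and 879 to 897 CPM in SX3; XCP2 on C07 (BnaC07G0192600ZS), a xylem protease, was lower (log2 -1.69 ± 0.17 (SE), edgeR adjusted p = 8.51e-17), and APL on A08 (BnaA08G0054000ZS), a phloem identity factor, had 4.17, 4.06 and 4.39 CPM in Slike, against 0, 0 and 0 CPM in SX3, at least 20.5-fold higher. Of the 60 anther and tapetum genes, markers of later flowers, 35 passed the filter on low counts, 26 of them higher and 5 lower. Among the 35, 9 were at 0 in all SX3 libraries and none in Slike, against 1298 and 7 of all 51650 tested genes. These 9 passed the filter only through other groups and could not be called lower in Slike. The list summed to 407 to 424 CPM in Slike and 253 to 262 CPM in SX3. BHLH89 on A10 (BnaA10G0043100ZS), a tapetum factor, had 6.59, 7.35 and 6.82 CPM in Slike, against 0.0741, 0 and 0 CPM in SX3. TKPR1 on C05 (BnaC05G0071900ZS), of pollen wall synthesis, was lower (log2 -1.30 ± 0.20 (SE), edgeR adjusted p = 9.50e-09). At 0 in SX3 were also 2 vascular genes, 1 photosynthesis gene and 1 epidermis gene. Most tested green, epidermal and late floral markers were thus called higher and most vascular markers lower in Slike, together with mostly higher floral organ genes. The part of tissue make-up, or of the stage at harvest, in the gene group results was not tested.

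Subtilases, the protease family to which the series title points, were called in both directions. Of 51 tested genes 22 were called higher and 16 lower (43.1% and 31.4%), beside 29.8% and 23.9% of all tested genes. SBT2.5 on A03 (BnaA03G0514500ZS) had 80.4, 78 and 82.4 CPM in Slike, against 21.8, 23.4 and 22.4 CPM in SX3 (log2 1.83 ± 0.05 (SE), edgeR adjusted p = 1.66e-64). The most abundant member named, SBT1.7 on C07 (BnaC07G0082100ZS), averaged 241 ± 3.39 CPM in Slike and 292 ± 3.13 CPM in SX3 (log2 -0.27 ± 0.03 (SE), edgeR adjusted p = 7.76e-18). A second SBT1.7 copy, on C09 (BnaC09G0338800ZS), lies in a quiet stretch and was higher (log2 0.60 ± 0.04 (SE), edgeR adjusted p = 1.14e-30). The labels do not tie BnaSBT to a gene ID, so its own level is not analysed here.

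The remaining lists are given by their counts and shares, beside 29.8% higher and 23.9% lower over all tested genes. Heat shock genes were higher at 34 and lower at 26 of 98 (34.7% and 26.5%), near those shares. Among them 2 neighbouring HSP90-4 copies on C03 were opposed (log2 1.65 for BnaC03G0137400ZS and -0.55 for BnaC03G0137000ZS). WRKY factors of defence were higher at 31 and lower at 20 of 100 (WRKY70 on C08, BnaC08G0362900ZS, log2 0.82; WRKY13 on A06, BnaA06G0447400ZS, -1.65), NB-ARC immune receptors at 15 and 7 of 46, F-box proteins, which mark targets for degradation, at 127 and 43 of 405, and pentatricopeptide repeat proteins of organelle RNA processing at 86 and 100 of 531.

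**Figure D5:**
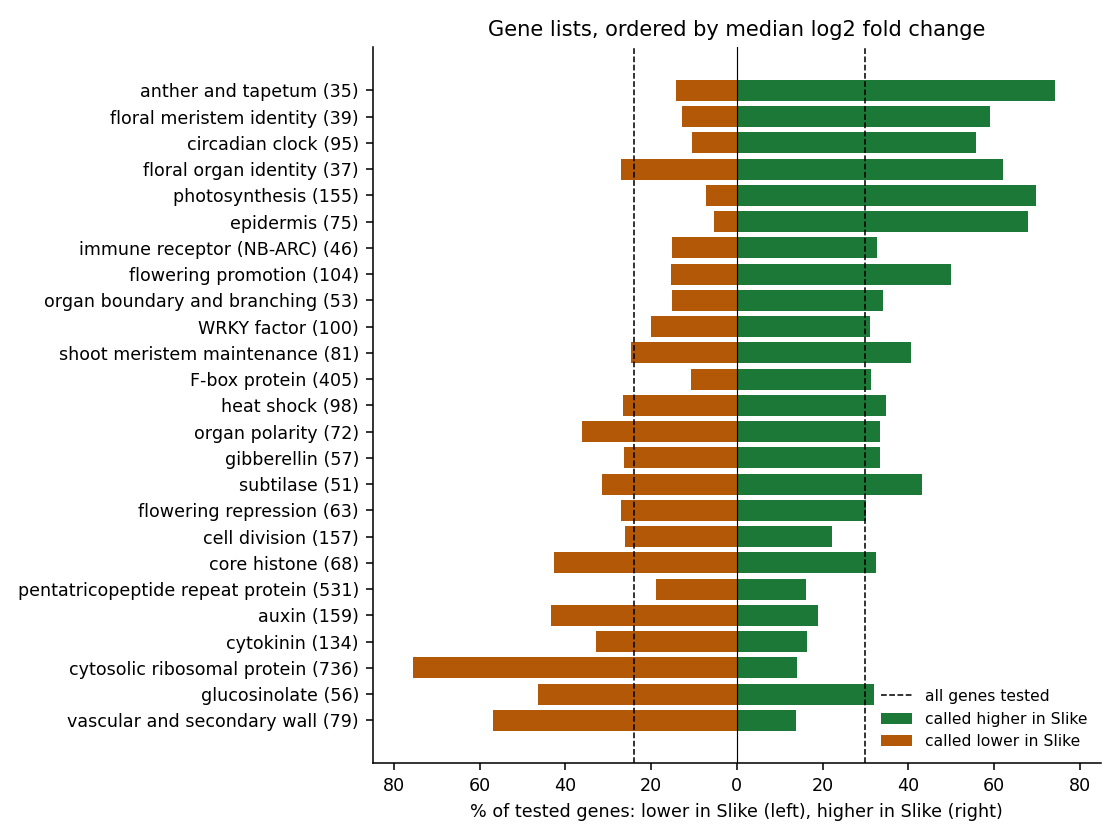
Percentage of tested genes called lower (brown, left) and higher (green, right) in Slike for the 25 gene lists, with the number tested in brackets, ordered by median log2 fold change. Dashed lines give all genes tested, 29.8% higher and 23.9% lower; ribosomal protein genes reach 75.5% lower and photosynthesis genes 69.7% higher.

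Quiet stretches show the opposite extreme. Runs of windows with under 5% of genes at 2-fold or more lay on C01 (24 to 26 Mb), C08 (0 to 2 and 17 to 20 Mb) and C09 (41 to 45 Mb). In the first stretch of C08, 5 of 146 tested genes were at least 2-fold different, a low count that follows from the rule that picked the stretch. RPL19B (BnaC08G0002000ZS) there, a ribosomal protein, averaged 282 ± 4.02 CPM in Slike and 340.5 ± 5.83 CPM in SX3. By whole chromosome, genes at 2-fold or more made up 34.5% of C02, 25% of A02 and 24.1% of A04, against 9.97% of C08 and 10.9% of C09. The A subgenome had 19.1% and the C subgenome 15.6%.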

How the data were processed

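RNA-seq of apical meristems was compared between 3 Slike and 3 SX3 libraries. The authors deposited a raw read count per gene for 12 libraries, in whole numbers, per the file headers. The deposited table also gives FPKM computed by the authors; recomputed FPKM differed from it by no more than rounding, so FPKM was not tested. Reads went through fastp, HISAT2 and featureCounts, per the submitters' processing notes; the sources used here do not give their settings, strand use or genome build. Near-identical, overlapping and antisense genes may share reads, and values of single copies are uncertain to that extent. Names are the best protein match in the deposited table (69773 of 100919 genes) and give a family, not necessarily the exact Arabidopsis counterpart.

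Counts were fitted with edgeR 4.0.16 (R 4.3.3) on all 12 libraries as 4 groups: filterByExpr, TMM scaling, quasi-likelihood test of Slike minus SX3, two-sided, Benjamini-Hochberg adjustment over 51650 genes, called under 0.05. Fold changes are Slike over SX3. Levels are TMM-scaled CPM, mean ± SD over 3 libraries. A fold against 3 libraries at 0 is a lower bound against 3 counts per library. The fit was tested on simulated data. Named genes are the largest changes present in both groups, the highest genes at 0 in a group, each list's smallest p per direction, the most abundant copy of 27 regulators and the 2 highest genes per stretch; other copies of these regulators, genes of the leading protein names and list members inside stretches were chosen after their values were seen. The 25 lists and all members were chosen with earlier results of these data known. The deposited spellings AP1A, AP1C and AG1 were added to the floral lists after the data were seen. Alternatives were other scalings, DESeq2 1.42.0, other filters, 6 libraries only, a replicate block and leaving out each library. A gene that this rule names in the C02 stretch is not reported here. No sequence is shown, and the study's own comparison tables were not used here.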

Additional observations from a re-analysis of the deposited data

How the results depend on the processing

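The count of genes called was 27714 and ran over 24225 to 28834 under other scalings, DESeq2, other filters on low counts and 6 libraries only, and over 25717 to 26261 without any 1 library. At 2-fold or more it was 8930, with 7909 to 10772 and 9078 to 9238. No scaling moved the share of higher calls by over 10 percentage points. The majority direction turned in 3 lists: flowering repression had 18 higher and 19 lower (37 called) with 6 libraries and without Slike replicate 1 (33 to 37 called without 1 library), and 14 higher and 17 lower (31) without genes of the high stretches, an alternative chosen after seeing the data. Organ polarity had 25 higher of 48 without Slike replicate 1 and 25 of 47 without Slike replicate 3 (45 to 49 called without 1 library). Cell division had 36 higher of 69 without Slike replicate 3, 38 of 75 without SX3 replicate 2 and 34 of 65 without SX3 replicate 3. The 8 stretches, 4 high and 4 low, became 5 with windows of 2 Mb and 60 with limits of 40% and 10%; the cause was not tested beyond these limits. No named gene of 282 reversed; DESeq2 lost 10 calls and leaving out 1 library 2 to 9. Replicate numbers did not pair the libraries: deviations of same-numbered libraries correlated at -0.0056 to 0.0076, and a replicate block gave 27651 calls, 8917 at 2-fold. Depth limits genes near the floor of 0.206 CPM.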
